A study of Mus musculus with 12 samples.

Results

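The panniculus carnosus is the thin sheet of striated muscle that lies beneath the fat of mouse skin, and 37 genes of skeletal muscle were followed here on arrays made from RNA of 12 samples. The genes were chosen by symbol: every non-control probe whose accession maps to a listed gene was taken, which gave 47 probes for 37 of 37 genes. Of these genes, 35 entered the test across all 25346 features (17189 of them with a gene symbol). The other two, Myh4, the IIb myosin heavy chain, and Tcap, the Z-disc protein telethonin, each had a single probe that was marked as an outlier on 1 array, and they are described by their flags only.

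The samples were labelled Eng+/- (heterozygous for the gene of endoglin, a co-receptor for Tgf-β and Bmp ligands) or wt, at 90 or 50 days, with clp, tpa or no named treatment, and each of the combinations had 1 array. What the days count, what clp and tpa stand for, and how many animals gave each RNA are not given in the sources used here, and the titles of the 2 wt arrays lacking a named treatment include the word pool. Every array held the sample's RNA in Cy5 and, in Cy3, RNA pooled from all conditions. The 3 treatment levels lay on 3 slides of 4 arrays, so treatment and slide cannot be told apart, whereas both genotypes and both days lay on each slide. The material is labelled as embryonic stem cells, and of 8 stem cell markers 5 (Nanog, Dppa5a, Utf1, Esrrb and Tdgf1) were above background on all 12 arrays, Sox2 on 7, Pou5f1 on 1 and Zfp42 on 0. The label goes against the genes of differentiated tissue: 47 of 47 muscle probes, 17 of 17 adipocyte markers and 7 of 7 epidermal markers were above background in Cy5 on all 12 arrays.

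Skeletal muscle contracts when calcium, let out through the ryanodine receptor, binds troponin C and frees actin for myosin. Fast and slow fibres build this machine from different isoforms of the myosin chains, of the troponins and of the calcium pump and store proteins, while skeletal actin, titin and nebulin serve both kinds. The panniculus of the mouse is known as a muscle of mostly fast fibres. In whole tissue, fewer muscle cells and less muscle RNA per cell cannot be told apart.

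Endoglin itself was read first as a check of the labels. Values throughout are log2 ratios of the sample to the pool. Eng stood at -0.78 and 0.94 on the Eng+/- arrays with clp at 90 and 50 d, against 0.83 and 1.92 in wt. With tpa it stood at -0.38 and -0.49 in Eng+/-, against 0.79 and -1.13 in wt, and with no named treatment at -0.86 and -1.43 in Eng+/-, against -0.58 and -0.24 in wt. It was lower in Eng+/- in 5 of 6 pairs, by 0.77 ± 0.27 on the log2 scale (SE), with an adjusted p of 0.401 in limma. The pair labelled tpa 50 d went the other way, so the main genotype values of the muscle genes are also given without it.

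Saturation set what could be measured. The scanner's Cy5 channel was saturated on 1 or more arrays for 22 of the 47 muscle probes, which covered 20 genes, and on all 12 arrays for 4 probes, those of Myh4, of Tnni2 and Tnnc2 (fast troponins I and C), and 1 of the probes of Myh8, the perinatal myosin heavy chain. Counted once for each probe and array, muscle probes were saturated in 87 of 282 cases on the Eng+/- arrays and 63 of 282 on the wt arrays. By array, the count of saturated muscle probes was 15 in Eng+/- and 8 in wt with clp at 90 d, and 10 and 10 with clp at 50 d. It was 18 in Eng+/- and 13 in wt with tpa at 90 d, and 17 and 14 for the pair labelled tpa 50 d. With no named treatment it was 21 in Eng+/- and 8 in wt at 90 d, and 6 in Eng+/- and 10 in wt at 50 d. The share of all spots saturated in Cy5 was 2.42% in Eng+/- and 3.65% in wt with clp at 90 d. At 50 d with clp it was 1.57% and 3.88%. With tpa this share was 3.66% and 3.71% at 90 d, and 3.53% and 3.03% in the pair labelled 50 d. With no named treatment the share was 4.29% and 1.31% at 90 d, and 0.85% and 1.17% at 50 d.

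Arrays also differed in overall brightness: the array with 21 saturated muscle probes had the highest median Cy5 signal of the 12 (573), and the array with 6 had the lowest (166.5). The wt clp 90 d array, with 8, had a median of 504.5. Spots of Mb, the oxygen store myoglobin, were saturated on 4 Eng+/- arrays and 0 wt arrays, and those of Pygm, muscle glycogen phosphorylase, on 2 and 0. A saturated spot understates the sample, so differences of these genes are compressed. The Cy3 channel was saturated for 1 muscle probe, that of Tnnc2, on 2 arrays.

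**Figure D1:**
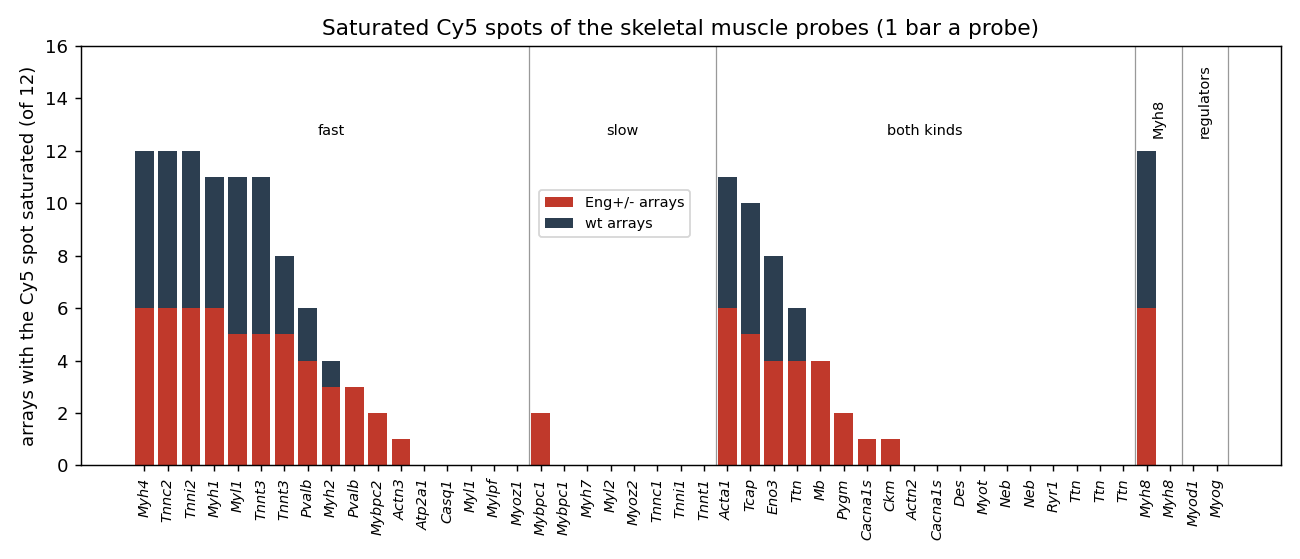
Number of arrays, of 12, on which the Cy5 spot of each of the 47 muscle probes was saturated, split into Eng+/- arrays (red) and wt arrays (dark), with probes grouped by fibre kind and labelled by gene. Saturation sits with the fast fibre genes, with genes of both kinds and with 1 probe of Myh8, and in the slow group only a second probe of Mybpc1 reached it, on 2 arrays.

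Saturation was counted by fibre kind. For each gene the probe with the fewest saturated spots was used. Of 13 fast fibre genes tested, 8 still had a saturated spot on at least 1 array, against 0 of 7 slow fibre genes and 5 of 12 genes of both fibre kinds. The probes used for Myh7 (slow and cardiac myosin), Myl2 (slow and cardiac regulatory light chain), Tnnc1 and Tnni1 (slow troponins C and I) had median Cy5 signals of 205.5, 265.25, 202.75 and 432.25 units, and Tnnc1's Cy3 signal was above background on 8 of 12 arrays. Signals of different probes are not compared as levels, but ratios of such dim probes are drawn towards 0 by the background offset of 50 units. Several slow fibre genes are shared with the heart, and of 11 markers of heart muscle 7 were above background on all 12 arrays, Myh6 on 11, Ryr2 on 3, Pln on 2 and Myl7, an atrial light chain, on 0. Median Cy5 signals were 2713 units for Myl4, 744 for Tnnt2, 711 for Actc1 and 236 or less for the other 8. The 10 tested heart markers had a median genotype difference of 0.14, with 7 higher in Eng+/-, and their part in the slow fibre values was not tested.

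Troponin C has a fast and a slow isoform. The promoters of both genes are printed with that of Myog, the regulator that passed a test below. They come from RefSeq (GRCm38.p6), run 250 bases before to 50 after the gene's start, and are shown with E-boxes, CANNTG, in capitals, the letters that myogenic factors of the MyoD family are known to bind. The motif reads the same on both strands and was found in 72.3% of the 32851 promoters in the table and in 31 of the 35 promoters of the 29 muscle genes it holds. Each printed promoter holds 2, and a match is a description of letters only.
Tnnc2 (fast troponin C), chr2:164779685-164779984, minus strand: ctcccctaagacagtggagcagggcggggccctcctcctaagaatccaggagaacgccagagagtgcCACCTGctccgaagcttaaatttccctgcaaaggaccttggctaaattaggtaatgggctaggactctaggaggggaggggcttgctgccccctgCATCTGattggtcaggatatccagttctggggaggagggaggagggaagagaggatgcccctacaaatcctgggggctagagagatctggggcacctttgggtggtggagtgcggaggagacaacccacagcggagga
Tnnc1 (slow and cardiac troponin C), chr14:31208062-31208361, plus strand: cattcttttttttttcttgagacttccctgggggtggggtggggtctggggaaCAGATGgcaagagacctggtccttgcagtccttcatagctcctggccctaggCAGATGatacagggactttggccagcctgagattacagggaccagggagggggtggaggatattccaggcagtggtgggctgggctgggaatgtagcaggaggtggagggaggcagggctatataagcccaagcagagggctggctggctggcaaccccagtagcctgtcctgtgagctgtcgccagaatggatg
Myog (myogenin), chr1:134289754-134290053, plus strand: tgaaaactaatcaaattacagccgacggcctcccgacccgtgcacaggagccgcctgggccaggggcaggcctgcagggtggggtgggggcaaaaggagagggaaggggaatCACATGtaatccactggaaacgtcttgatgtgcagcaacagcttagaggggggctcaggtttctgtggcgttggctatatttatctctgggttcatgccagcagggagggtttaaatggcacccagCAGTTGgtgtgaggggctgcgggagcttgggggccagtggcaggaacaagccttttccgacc

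Fast fibre genes had wider ranges between arrays than slow fibre genes. The range of a gene over the 12 arrays had a median of 2.04 log2 units for the 13 fast genes, 2.21 for the 12 genes of both kinds and 0.88 for the 7 slow genes, beside 0.86 over all features. Myh2, the IIa myosin heavy chain, whose Cy5 spots were saturated on 4 arrays, ran from -1.40 to 1.60, and Myh7 from -0.16 to 0.42. Ckm, muscle creatine kinase, ran from -0.58 to 2.23, and Tnni1 from 0.05 to 0.66. The slow genes with brighter probes, Tnnt1, Mybpc1 and Myoz2, had ranges of 2.06, 1.98 and 1.83, and the dim fast gene Mylpf one of 1.01.

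The ratios of most fast fibre genes and genes of both kinds moved together over the arrays. As a description, with arrays that differ in brightness and share 1 pool, the correlation of a gene with the median of the other muscle genes over the 12 arrays had a median of 0.83 for fast genes, 0.87 for genes of both kinds and 0.21 for slow genes. Actn2, the Z-disc actinin, reached 0.98, Ckm 0.95, Mb 0.94 and Myoz1, the fast calsarcin, 0.93. The fast median includes Tnni2 at 0.87 and Tnnc2 at 0.83, whose Cy5 spots were saturated on all 12 arrays. Ratios that do not measure the sample thus moved with the others. The part of the pool and of the scaling in these correlations was not tested. Within the slow group, Mybpc1, slow myosin binding protein C, and Myoz2, the slow calsarcin, stood at 0.90 and 0.82, whereas Tnni1 and Myh7 stood at -0.04 and -0.01.

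**Figure D2:**
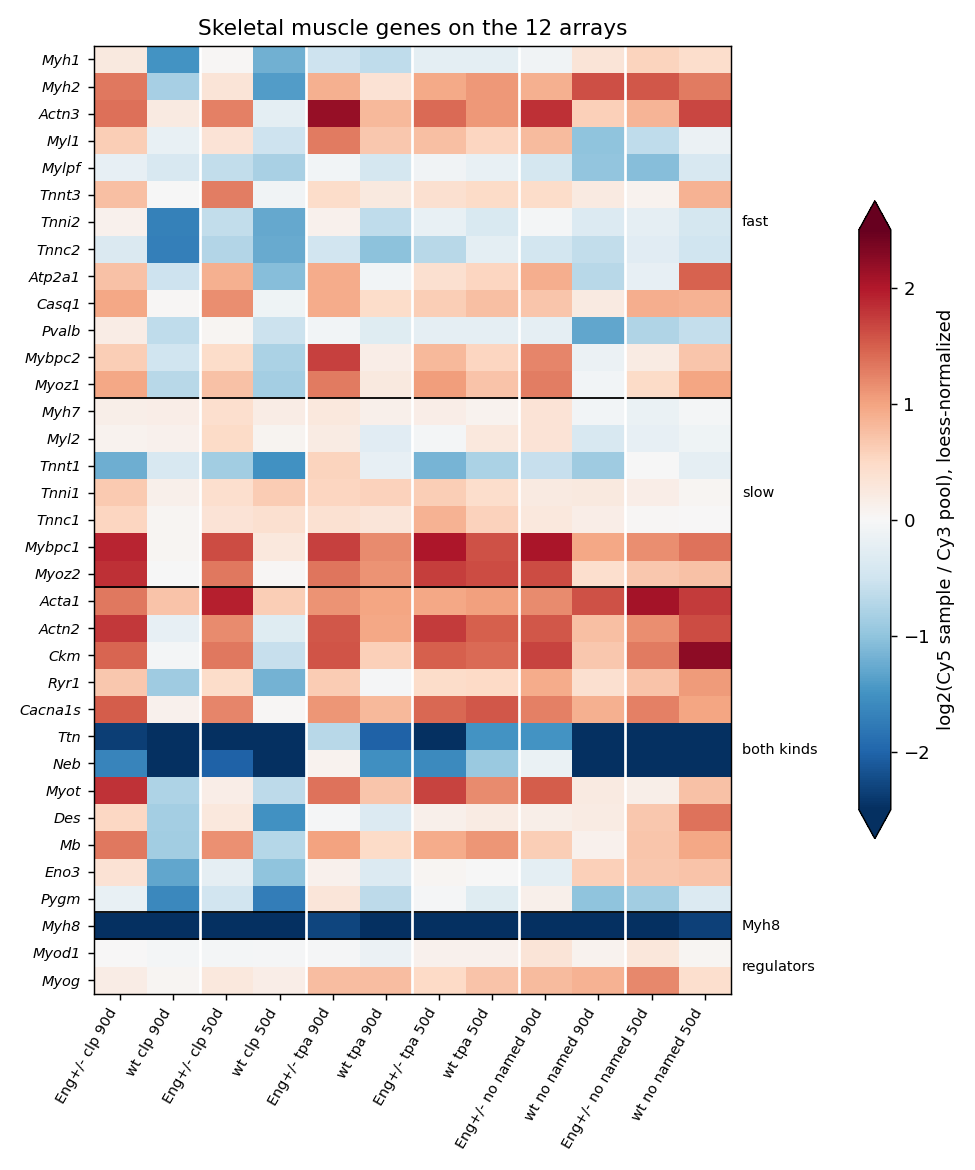
Log2 ratio of sample to pool for the 35 tested muscle genes (rows, by fibre kind) on the 12 arrays (columns, Eng+/- left of wt in each pair); red is above and blue below the pool, and the colour scale ends at 2.5 in each direction. The 2 wt clp columns are the palest or bluest for most fast genes and genes of both kinds, and Ttn, Neb and Myh8 lie below the pool on most arrays.

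Eng+/- samples lay above wt for 28 or more of the 35 muscle genes in 4 of the 6 pairs, but no gene passed the test. Over the 35 genes, the median difference (Eng+/- minus wt) was 1.24 with clp at 90 d, where 32 were higher in Eng+/-, and 1.21 with clp at 50 d, where 32 were higher. It was 0.53 with tpa at 90 d (33 higher) and 0.00 in the pair labelled tpa 50 d (18 higher). With no named treatment it was 0.52 at 90 d (28 higher) and -0.20 at 50 d (12 higher). The clp pairs thus had the widest gap, and at 50 d with no named treatment wt was the higher one for 23 genes.

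In the fit over the 6 pairs, 35 of 35 differences were above 0, beside 47.6% of all features, with a median of 0.58. Among the 22 genes with no saturated Cy5 spot, 22 were above 0, with a median of 0.54. Cy5 was saturated on 6 to 12 arrays for 7 of the 35. At an adjusted p under 0.05, limma called 0 of 35, as it called 0% of all features, and the smallest adjusted p was 0.401. At an unadjusted p under 0.05 there were 15 of 35 muscle genes, beside 12% of all features. Without the pair labelled tpa 50 d the median was 0.71 with 0 genes called. Tnni2 was the single gene higher in Eng+/- in 6 of 6 pairs, beside 3.2% of all features. Its Cy5 spots, like those of Tnnc2, were saturated on all 12 arrays, while its Cy3 signal ran from 9208 to 62141 units. The ratios of Tnni2 and Tnnc2 thus vary with the Cy3 pool and the scaling and do not measure the sample. No fold is given for Tnni2 and Tnnc2, nor for Acta1 and Myh1, saturated on all 6 Eng+/- arrays and on 5 of 6 in wt.

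Myoz1 lay at 0.96 and 0.74 in Eng+/- with clp at 90 and 50 d, against -0.70 and -0.84 in wt. With tpa it lay at 1.30 and 1.05 in Eng+/-, against 0.24 and 0.71 in wt, and with no named treatment at 1.29 and 0.47 in Eng+/-, against -0.07 and 0.98 in wt. The Eng+/- arrays were higher in 5 of 6 pairs and the groups overlapped. The difference was 0.92 ± 0.27 (SE; adjusted p = 0.401, limma), with no saturated spot, and 1.03 without the pair labelled tpa 50 d.

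Mybpc1 had log2 ratios of 1.90 and 1.63 in Eng+/- with clp at 90 and 50 d, against 0.05 and 0.27 in wt. With tpa it had 1.71 and 2.01 in Eng+/-, against 1.18 and 1.59 in wt, and with no named treatment 2.03 and 1.15 in Eng+/-, against 0.97 and 1.35 in wt. All Eng+/- arrays were at 1.15 or above, and wt overlapped them. The difference was 0.84 ± 0.25 (SE; adjusted p = 0.401, limma), and 0.92 without the pair labelled tpa 50 d.

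Mb stood at 1.31 and 1.14 in Eng+/- with clp at 90 and 50 d, against -0.87 and -0.72 in wt. With tpa it stood at 1.01 and 0.92 in Eng+/-, against 0.47 and 1.10 in wt, and with no named treatment at 0.62 and 0.68 in Eng+/-, against 0.10 and 0.97 in wt. The 2 wt clp arrays were below the other 10. Its difference was 0.77 ± 0.33 (SE; adjusted p = 0.415, limma), and 0.96 without the pair labelled tpa 50 d, both compressed by the saturation on 4 Eng+/- arrays.

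The largest fitted differences among the remaining unsaturated genes were Neb, nebulin of the thin filament, at 1.20 ± 0.59, Myot, myotilin of the Z-disc, at 0.88 ± 0.33, Actn2 at 0.77 ± 0.29 and Myoz2 at 0.76 ± 0.26 (SE, adjusted p from 0.401 to 0.441). Neb was higher in Eng+/- in 4 of 6 pairs, by 4.39 at 90 d with no named treatment, where the Eng+/- array lay at -0.17 and the wt array at -4.56, and by 0.77 to 1.62 in the other three. Mylpf, the fast regulatory light chain, differed by 0.12 ± 0.15 and Myh8 by 0.07 ± 0.38. The 2 regulators of the MyoD family differed by 0.11 ± 0.07 (Myod1) and 0.12 ± 0.12 (Myog).

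**Figure D3:**
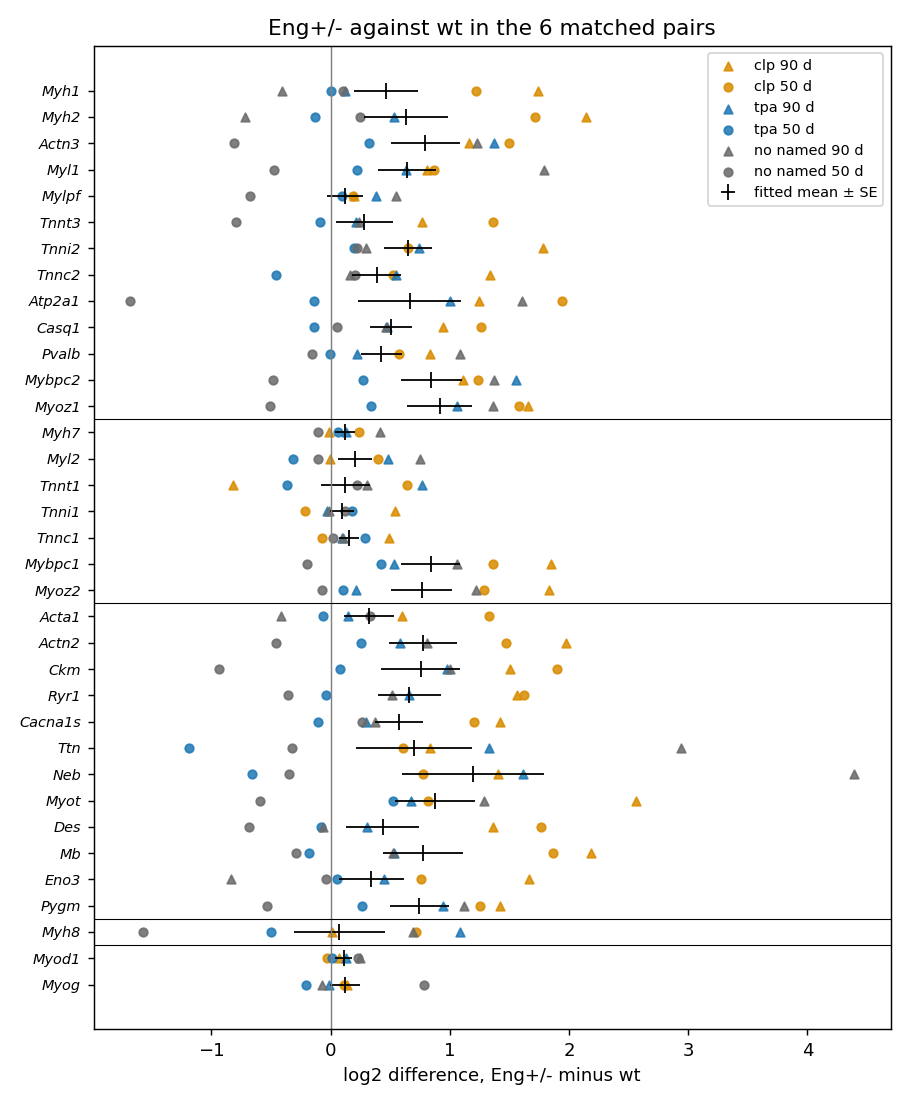
Log2 difference, Eng+/- minus wt, of each tested muscle gene in the 6 pairs (triangles 90 d, circles 50 d; orange clp, blue tpa, grey no named treatment), with the fitted mean and its SE in black and lines between fibre kinds. The clp points lie farthest right for most genes, and the 50 d points with no named treatment lie left of 0 for 23 of 35. Tnni2, Tnnc2, Acta1 and Myh1 were at the Cy5 ceiling on 11 or 12 arrays, so their points do not measure a sample difference.

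Fast genes had a larger fitted difference than slow genes: the median was 0.63 over 13 fast genes, 0.72 over 12 genes of both kinds and 0.15 over 7 slow genes, with the authors' processed signals giving 0.58 for fast and 0.38 for slow. Without the pair labelled tpa 50 d the medians were 0.72 for fast and 0.22 for slow. Probe brightness also differed between the groups. The brighter slow genes Mybpc1 and Myoz2 differed by 0.84 and 0.76, and Tnnt1 by 0.13. The dim slow genes Myh7, Myl2, Tnnc1 and Tnni1 differed by 0.12, 0.20, 0.15 and 0.10, and the dim fast gene Mylpf by 0.12. The part of brightness in the gap between fibre kinds was not tested. The median of fast genes minus that of slow genes was read on each array. Eng+/- exceeded wt in it by 0.65 and 0.93 with clp at 90 and 50 d, by 0.49 with tpa at 90 d and by 0.66 with no named treatment at 90 d. In the pair labelled tpa 50 d and at 50 d with no named treatment it was lower in Eng+/-, by -0.32 and -0.64. The mean over the pairs was 0.29 ± 0.62 (SD, n = 6), smaller than its spread, and 0.42 over the 5 pairs without that labelled tpa 50 d.

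**Figure D4:**
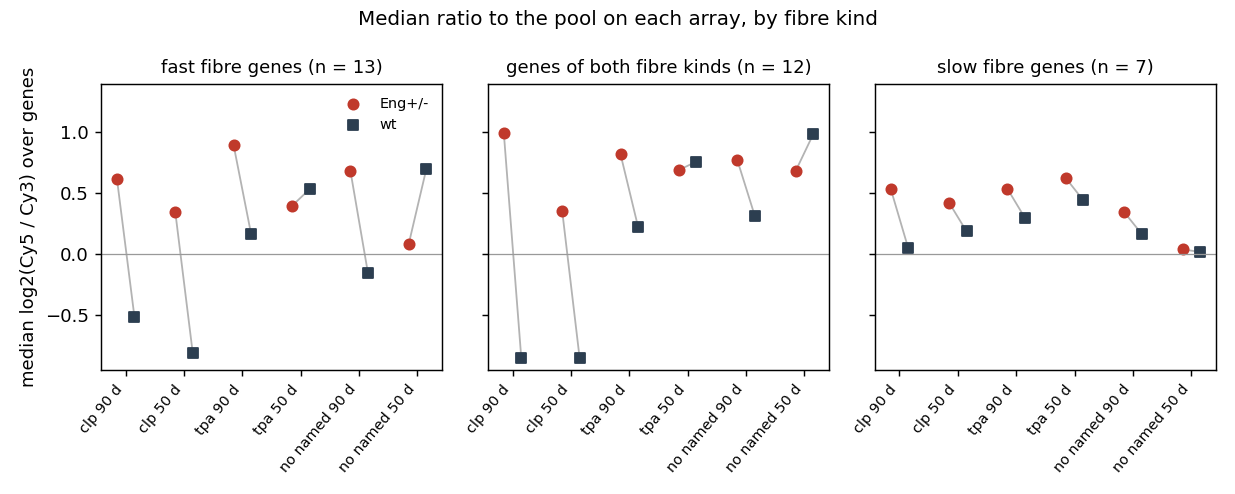
Median log2 ratio over the fast fibre genes (13), the genes of both fibre kinds (12) and the slow fibre genes (7) on each array, Eng+/- (red circle) joined to wt (dark square) of the same condition. Fast genes and genes of both kinds fall below the pool in both wt clp arrays, while slow genes stay between 0.02 and 0.62 on all arrays.

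Dependence of the genotype difference on day and on treatment was examined in a model of all 2-way interactions, which leaves 2 residual degrees of freedom. For genotype by treatment, limma called 0 of 35 muscle genes and 0% of all features (smallest adjusted p among muscle genes 0.633, for Mb), with 12 of 35 at an unadjusted p under 0.05, beside 2.77% of all features. For genotype by day it called 0 of 35 and 0% of all features (smallest adjusted p among muscle genes 0.981), with 8 of 35 at an unadjusted p under 0.05, beside 3.56%. The wider gap in the clp pairs was thus not called by this test, but the genotype by treatment count was 8 of 35 with median centring and 8 or 9 of 35 with any 1 of the 4 arrays of no named treatment left out.

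A further list of skeletal muscle genes was read beside the 37. Of 58 tested, limma called 0 for genotype, as it called 0% of all features. At an unadjusted p under 0.05 there were 37, beside 12% of all features, 54 were higher in Eng+/-, beside 47.6%, 14 of them in all 6 pairs, beside 3.2%, and the median difference was 0.54. Ppp1r27, a muscle phosphatase subunit, was higher in 6 of 6 pairs by 0.81 ± 0.11 (SE; adjusted p = 0.401), and so was Trim63, the ubiquitin ligase MuRF1, by 0.78 ± 0.20. Several markers of other cells moved in the same pairs. The 9 hair shaft genes had median differences of -1.59 and -0.23 with clp at 90 and 50 d, -1.67 with tpa at 90 d, 0.36 in the pair labelled tpa 50 d, and -6.10 and -1.79 with no named treatment at 90 and 50 d.

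The 9 endothelial genes had a median fitted difference of 0.25 with 7 higher in Eng+/-, and the 16 adipocyte genes 0.14 with 12 higher. At an unadjusted p under 0.05 in limma there were 6 of 9 endothelial and 2 of 16 adipocyte genes, beside 12% of all features. Higher in all 6 pairs were 4 of 9 and 3 of 16, beside 3.2%. The endothelial median was higher in 6 of 6 pairs, and that of the 35 muscle genes in 5 of 6. Summed Cy5 signals of endothelial genes ran from 5648 to 34862 units in Eng+/- and from 8491 to 21636 in wt. Those of adipocyte genes ran from 190053 to 621180 in Eng+/- and from 240302 to 502503 in wt. For hair shaft genes the sums ran from 21589 to 447088 in Eng+/- and from 22376 to 487698 in wt. No defining marker of these lists was below background on all arrays. Their part in the muscle result was not tested.

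With clp, most muscle genes of wt samples lay below their counterparts, whereas in Eng+/- samples the medians lay slightly above 0. Against no named treatment, the median over the 35 genes was -0.42 and -1.08 in wt at 90 and 50 d, where 25 and 28 genes were lower, and 0.14 and 0.25 in Eng+/-, where 16 and 12 were lower. Over both genotypes the fitted median was -0.42, with 24 of 35 lower and 11 above 0, beside 52.2% of all features above 0, and -0.10 without the wt array at 50 d with no named treatment. One gene passed, Myog, where 10% of all features did and 4.23% did so downwards, and 10 of 35 were at an unadjusted p under 0.05, beside 27.6% of all features. The share of muscle genes called was thus below that of all features. Centring each array on its median in place of loess gave a fitted median of 0.19, with 24 of 35 higher and the median of all features at 0.24, so the direction of the list depends on the scaling.

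Myog, which drives myoblasts into differentiation, had log2 ratios of 0.19 and 0.27 in Eng+/- and 0.05 and 0.16 in wt with clp at 90 and 50 d. With tpa it had 0.76 and 0.50 in Eng+/- and 0.77 and 0.70 in wt, and with no named treatment 0.79 and 1.19 in Eng+/- and 0.87 and 0.41 in wt. The 4 clp arrays lay below the 4 with no named treatment and below the 4 with tpa, without overlap. Groups that do not overlap were found for 9.32% of all features in the first contrast, with 2 of 35 muscle genes, and for 16.2% in the second, also with 2 of 35. Against no named treatment it fell by 0.65 ± 0.15 (SE; adjusted p = 0.0352, limma), and against tpa the difference was -0.52 ± 0.15 (adjusted p = 0.0787).

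The call on Myog held under 8 of 21 other settings and was lost when any 1 of 10 of the 12 arrays was left out (all but Eng+/- 90 d and wt 50 d with no named treatment), with adjusted p from 0.00216 to 0.115 and the same direction under all 21. Its Cy5 signal was low, at a median of 298.15 units. Myod1, which commits cells to the muscle lineage, also lay lower in all 4 clp pairs without overlap, by -0.22 ± 0.09, but did not pass (adjusted p = 0.141).

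**Figure D5:**
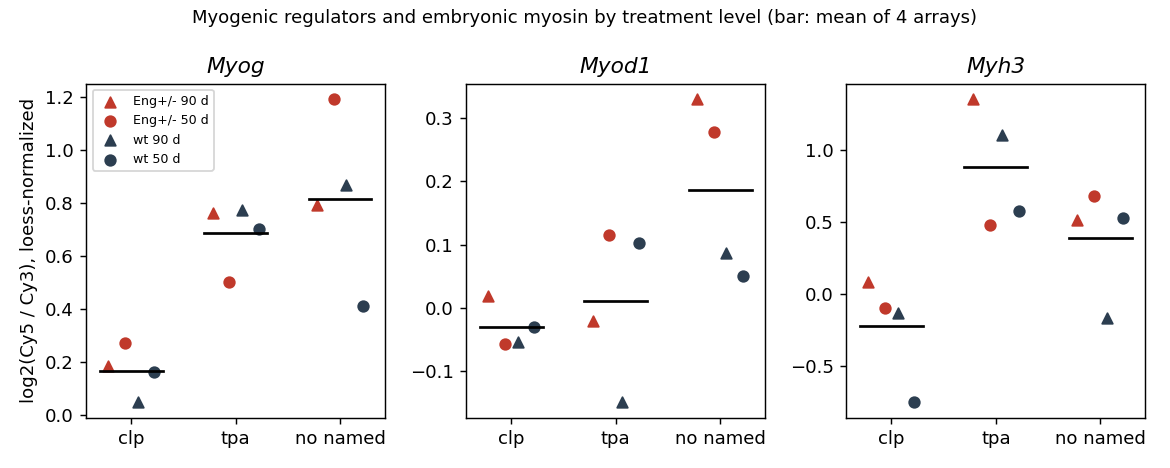
Log2 ratio of Myog, Myod1 and Myh3 on the arrays of each treatment level (triangles 90 d, circles 50 d; red Eng+/-, dark wt; bar, mean of 4 arrays). The clp arrays are the lowest for Myog, between 0.05 and 0.27, and the highest Myh3 values, 1.36 and 1.10, are the tpa arrays at 90 d.

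Genes of muscle regeneration and denervation were read with them. With clp against no named treatment 2 of 19 measured were called, a share close to the 10% of all features. These fell: Myh3, the embryonic myosin heavy chain, by 0.61 ± 0.14 (SE; adjusted p = 0.0308, limma) and Mymk, the fusion protein myomaker, by 0.90 ± 0.22 (adjusted p = 0.0401). The call on Myh3 held under 11 of 21 other settings and that on Mymk under 7 of 21, and with the Cy5 channel alone Mymk had the opposite sign. None of the others passed. Among the fibre genes, the largest clp differences that did not pass were those of Myh2 and of Ryr1, the calcium release channel. Myh2 differed by -1.49 ± 0.43 (adjusted p = 0.0654, limma) and Ryr1 by -1.01 ± 0.32 (adjusted p = 0.0854, limma). Cy5 spots of Myh2 were saturated on 4 arrays, and the effect of this on the contrast was not tested. Lists of other cells moved in the same contrast, in both directions. Of fibroblast and fascia genes 10 of 10 were lower (4 called, median -0.69), as were 14 of 16 adipocyte genes (5 called, median -0.36) and 8 of 10 smooth muscle genes (3 called, median -0.11). Hair shaft genes went the other way, with 9 of 9 higher (2 called, median 1.73). The part of these lists in the muscle values was not tested.

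Against tpa, clp left 31 of 35 muscle genes lower and 4 above 0 (57.7% of all features were above 0), with a median of -0.52 (-0.28 without the wt clp 90 d array), but limma called 0 of 35, beside 7.59% of all features (9 at an unadjusted p under 0.05, beside 24.8%). In wt the median was -0.68 and -1.09 at 90 and 50 d, and in Eng+/- 0.04 and -0.18. Of the 58 further muscle genes 2 were called, and of the 19 of regeneration and denervation 3, beside 7.59% of all features. Those that fell were Myh3 by 1.11 ± 0.14 (adjusted p = 0.00715), Ppp1r27 by 0.97 ± 0.14 (adjusted p = 0.0110), Mybph, a myosin binding protein H of fast muscle, by 0.99 ± 0.23 (adjusted p = 0.0391), and Chrna1, the acetylcholine receptor subunit of the muscle endplate, by 0.72 ± 0.14 (adjusted p = 0.0255). One rose, Runx1, a transcription factor known to be induced in denervated muscle, by 0.61 ± 0.15 (adjusted p = 0.0496). Of 20 other settings, the call held under 19 for Myh3, 16 for Ppp1r27, 11 for Chrna1, 10 for Mybph and 5 for Runx1. The low Cy5 signal of Myh3 given above applies here too. Markers of other cells also moved between clp and tpa, in both directions. Hair shaft genes were higher for 9 of 9 (2 called, median 2.86). Fibroblast and fascia genes were lower for 8 of 10 (3 called, median -0.65), and adipocyte genes for 15 of 16 (1 called, median -0.33). The part of other cells in the rise of Runx1 and in the muscle values was not tested.

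With tpa against no named treatment, 23 of 35 muscle genes were higher, beside 50% of all features, and the median was 0.13. limma called 0 of 35 and 0% of all features, with 8 at an unadjusted p under 0.05, beside 25.6% of all features. The smallest adjusted p was that of Tnnc1, the slow troponin C, at 0.102. Its log2 ratios were 0.39 and 0.87 in Eng+/- and 0.30 and 0.58 in wt with tpa at 90 and 50 d, against 0.27 and 0.04 in Eng+/- and 0.17 and 0.02 in wt with no named treatment. The tpa arrays lay above the others without overlap, by 0.41 ± 0.11 (SE), as did those of Tnni1, by 0.37 ± 0.12 (adjusted p = 0.130). Values that do not overlap were found for 11.1% of all features in this contrast, and for 4 of 35 muscle genes. Myh1, the IIx myosin heavy chain, and Acta1, skeletal actin, were the others. Both were saturated in Cy5 on 11 of 12 arrays, so their ratios do not measure a sample difference and no direction is given.

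Between 90 and 50 d no muscle gene passed. limma called 0 of 35 and 0% of all features with clp, with tpa and with no named treatment, and 0, 2 and 0 muscle genes were at an unadjusted p under 0.05, beside 12%, 5.57% and 4.82% of all features. With no named treatment the median over the 35 genes was 0.39 in Eng+/- and -0.64 in wt (90 minus 50 d), and with tpa 0.16 in Eng+/- and -0.40 in wt. With clp it was 0.23 in Eng+/- and 0.08 in wt. The day by treatment interaction called 0 of 35 and 0% of all features, with 1 muscle gene at an unadjusted p under 0.05, beside 12.6%.

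Probes of one gene disagreed for the giant proteins of the sarcomere. Titin, the spring that links Z-disc to M-line, had 4 tested probes with median log2 ratios of 0.60, 0.37, -2.21 and -2.70, and those 2 low probes ran down to -4.80 and -4.44. Nebulin had a probe with a median of -1.83 that ran from -4.56 to 0.09, and another with a median of 1.85 that ran from 0.13 to 2.38. The difference between genotypes averaged 1.20 with the first nebulin probe and 0.88 with the other, and 0.44 to 0.78 over the titin probes. The titin probe at 0.44, saturated on 6 arrays, was higher in Eng+/- in 2 of 6 pairs. The other titin probes were higher in 4 or 6 of 6. Myh8 had a dim probe at a median of -3.22 and a saturated one at 0.35. Among the probes that stood far below the pool, the median Cy5 and Cy3 signals were 6530.5 and 7654 units for the lowest titin probe, 617.5 and 1275.25 for the dim Myh8 probe, 4830 and 4157.5 for the other low titin probe and 9725.5 and 7272.25 for the low nebulin probe. Cy3 was the brighter channel for 2 of these 4 probes, and the cause was not tested.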

How the data were processed

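Each of the 12 arrays compared a Cy5 sample with a Cy3 pool, per the labels. The deposited scanner files hold spot intensity values of both channels with flags for saturation, outliers and signal above background, and the authors' processed signals are background-subtracted and dye-normalized, per the file headers. The deposited value table holds log10 ratios, which equal those of the scanner files (largest difference 0), and served for that check only. The series text gives a wt Cy3 channel with dye swaps and a GenePix scanner, unlike the labels and headers of the arrays. Feature Extraction is 10.0 in the submitters' processing notes and 10.7.3.1 in the headers. The probe annotation is of mm9 per the file headers, and no probe coordinates are given.

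Median intensities were processed in limma 3.58.1 (R 4.3.3, with version 1.17.8 of the data.table package): normexp with an offset of 50, then loess within arrays with control spots at weight 0. Mean signals had been planned, but the files used here hold medians. Outlier spots were dropped, which left out 975 of 39429 probes, and a probe was tested if Cy5 was well above background on at least 2 arrays. The probe with the fewest saturated spots stood for a gene, ties going to the brighter one. A model of genotype and the 6 treatment-by-day conditions (5 residual degrees of freedom, prior 3.28) gave all differences, with eBayes (trend) and two-sided p-values adjusted by Benjamini-Hochberg over 25346 features (threshold 0.05). Groups of 1 array have no replicates, so the spread is what this model leaves over. A model of all 2-way interactions tested the interactions. On simulated data with 25346 features, 79.5% of genes changed by a log2 value of 1 were recovered for genotype, 64.5% for clp and 30% for day in tpa. The changed genes were drawn at random from all features, with independent normal noise. The muscle genes had a median SD over arrays of 0.64, against 0.27 for all features, and moved together. These rates therefore do not give the recovery for muscle genes, which was not simulated.

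The members and the gene lists were chosen with earlier results of these data known. Named genes are members by role, those with the smallest p or largest difference, and listed genes that passed. The highest correlation between 2 arrays was 0.973, for the pair labelled tpa 50 d. The small number of arrays limits the precision.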

Additional observations from a re-analysis of the deposited data

Results flagged for a closer look

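For 3 muscle genes, both pairs of one treatment level moved one way and both pairs of another moved the opposite way (Eng+/- minus wt, log2). Des, desmin of the muscle intermediate filaments, differed by 1.37 and 1.77 with clp at 90 and 50 d, against -0.060 and -0.68 with no named treatment. Eno3, muscle enolase, differed by 1.66 and 0.76 with clp and by 0.45 and 0.056 with tpa, against -0.84 and -0.036 with no named treatment, and was saturated on 8 of 12 arrays. Myog differed by 0.14 and 0.11 with clp, against -0.012 and -0.20 with tpa. These pairwise differences between treatment levels were not tested by themselves. The genotype by treatment test over the 3 levels gave Des an unadjusted p of 0.00211 and an adjusted p of 1.00 in limma.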

How the results depend on the processing

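The median genotype difference over the muscle genes stayed above 0 under all 9 other settings (0.48 to 0.83) and with each array left out (0.41 to 0.71), with 0 genes called in each. Median centring shifted all features by 0.11 for genotype, 0.24 for clp and 0.34 for tpa. The count of muscle genes called for clp against no named treatment was 0 with median centring, 4 with the authors' processed signals, 9 with Cy5 alone, 0 without both tpa 50 d arrays, 0 without the wt none 50 d and wt clp 90 d arrays, and 0 to 6 with 1 array left out (6 without Eng+/- none 90 d, 5 without Eng+/- clp 90 d). For clp against tpa it was 1 with the processed signals, 1 with Cy5 alone and 0 to 3 with 1 array left out (3 without Eng+/- or wt none 50 d, 2 without Eng+/- clp 90 d). For tpa against no named treatment it was 0 to 6 with 1 array left out (6 without the Eng+/- none 90 d array), and the median was 0.78 with median centring, 0.33 without the 2 wt arrays, and -0.083 (without Eng+/- none 50 d) to 0.36 with 1 left out. The genotype by treatment count was 8 with median centring and 0 to 9 with 1 array left out (8 or 9 without any 1 of the arrays of no named treatment). The median for 90 against 50 d with clp was 0.36 without the 2 wt arrays and -0.22 to 0.54 with 1 left out. Mymk with Cy5 alone was 1.92 (adjusted p = 0.0109) for clp against no named treatment. The cause of these shifts was not tested. With 1 array left out, the median was -0.63 to -0.10 for clp against no named treatment, -0.76 to -0.28 for clp against tpa, -0.46 to 0.39 for day with no named treatment and -0.38 to 0.23 for day with tpa. No paired analysis was possible because the groups share fewer than 2 replicate numbers; genotypes are already paired by condition in the model. Contrasts with tpa at 50 d could not be fitted without those arrays, nor the interactions without the 2 wt arrays. Saturated and dim spots limit both ends of the range.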
